A study of Homo sapiens with 2 samples.

Results

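The 1 Mb of chromosome 5 that holds DUSP1 and STC2 (hg19, 172.0 to 173.0 Mb) carried 17 of the 9393 peaks of YAP-5SA listed by the authors. Its peaks were chosen by position, as every summit between those bounds, and the megabase itself was selected on its high number of peaks. Number, height and width of these peaks are therefore described without a test. Most peaks lay on the DUSP1 side: 13 were nearer to DUSP1 and 4 nearer to STC2. The 4 on the STC2 side included the lowest peak of the megabase.

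The peaks come from chromatin immunoprecipitation followed by sequencing (ChIP-seq) of MCF10A cells expressing Flag-tagged YAP-5SA. MCF10A is a mammary epithelial line that 1 label calls non-transformed and another calls a breast cancer line. The series has 1 library of DNA recovered on Flag-M2 beads and 1 library of input DNA, both from cells kept in medium with horse serum, EGF, insulin, hydrocortisone and cholera toxin. How the tagged protein was introduced, and whether the cells were a clone or a pool, is not stated in the labels, and a ChIP from cells without the tag was not analysed here. There was no replicate, and without read counts no depth can be given, so the values hold for this peak list alone.

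YAP is the co-activator that the Hippo pathway holds in the cytoplasm, and the 5SA mutant lacks the serines that LATS kinases phosphorylate, so it escapes that restraint. It does not bind DNA itself and is brought to chromatin mainly by TEAD factors, often at distal enhancers that also hold AP-1. DUSP1 is a dual-specificity phosphatase that switches off MAP kinases, and its gene is an immediate-early gene induced by serum, growth factors, stress and glucocorticoids. STC2 is a stanniocalcin, a secreted glycoprotein that inhibits the protease PAPP-A and so limits the release of insulin-like growth factors, and its gene responds to endoplasmic reticulum stress. Both genes are read from the minus strand per RefSeq, so upstream sequence lies at higher coordinates. For distances, the start of each gene is taken as the upper end of its hg19 span.

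The promoters of the 2 genes are shown because a peak lay over the start of DUSP1 and another lay near the start of STC2. The sequences are from RefSeq (GRCh38.p14, minus strand), 250 bases before to 50 after each start, and read 5′ to 3′ along the gene. DUSP1 is at chr5:172771146-172771445 and STC2 at chr5:173328365-173328664 in that build, which is not the build of the peaks. The 2 promoters lie closer together than the upper ends of the 2 hg19 spans, by more than the rounding of the spans. The RefSeq start of STC2 may thus lie below its span end, and the peak at STC2 may cover it. This was not settled, because no coordinate was moved between builds. Capitals mark a cyclic AMP response element (CRE, TGACGTCA) and an E-box (CACGTG).
DUSP1: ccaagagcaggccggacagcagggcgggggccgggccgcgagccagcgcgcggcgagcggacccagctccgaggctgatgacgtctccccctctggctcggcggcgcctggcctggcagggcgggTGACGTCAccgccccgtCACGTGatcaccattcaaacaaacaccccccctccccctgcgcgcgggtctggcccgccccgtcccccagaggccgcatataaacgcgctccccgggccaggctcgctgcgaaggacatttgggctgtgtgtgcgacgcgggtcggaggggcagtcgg
STC2: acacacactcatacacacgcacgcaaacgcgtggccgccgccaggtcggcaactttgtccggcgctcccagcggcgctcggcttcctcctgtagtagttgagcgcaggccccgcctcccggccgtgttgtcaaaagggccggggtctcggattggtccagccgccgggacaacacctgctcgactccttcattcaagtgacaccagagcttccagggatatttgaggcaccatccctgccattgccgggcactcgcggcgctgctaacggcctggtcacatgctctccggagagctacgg

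The DUSP1 promoter held 1 CRE, from 125 to 118 bases upstream of the start, and 1 E-box, from 108 to 103 bases upstream. A CRE is the element read by CREB and ATF factors, and an E-box is read by basic helix-loop-helix factors. Of all 35116 RefSeq promoter entries of this length, 1.85% held a CRE, 7.26% held an E-box and 0.162% held both. The share with both is given only for the pair of motifs that DUSP1 held, and it was not tested. No TEAD motif (GGAATG) and no AP-1 motif (TGAGTCA or TGACTCA) was found in the DUSP1 window on either strand, and they occurred in 14.0% and 4.95% of all entries. The STC2 window held none of these 4 motifs. The CArG box of serum response factor was in neither window and in 1.29% of all entries. Both strands were searched for exact matches only, so sites that differ from a motif by a base were not counted. The 2 matches did not overlap. The DUSP1 window had 73.3% G and C, the STC2 window 64.0%, and the median entry 58.7%. These windows say nothing about motifs elsewhere under the peaks, whose own sequence was not analysed here.

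DUSP1 belongs to the MAP kinase phosphatases, of which 8 were matched in the promoter table. Among these 8, a CRE was found in DUSP1 and DUSP8 and an E-box in DUSP1 and DUSP2. The TEAD, AP-1 and CArG motifs were found in 0 of the 8.

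At the start of DUSP1, a pair of peaks lay side by side. The first had its summit at 172198192, within 0.2 kb of the start and thus at it, since gene spans are known here only to about 1 kb. Its interval ran from 172197590 to 172198656, or 1067 bp, and reached from 0.4 kb inside the gene to 0.7 kb upstream. Its height, which is the authors' score at the summit with no unit stated, was 32.

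The second peak of the pair was the tallest of the megabase. Its summit at 172199520 lay 1.5 kb upstream of the DUSP1 start, its interval ran from 172199198 to 172200188, and its height was 56. Only 144 of the 9393 peaks (1.53%) were as tall. The intervals of the pair were 541 bp apart. In the whole list 188 neighbouring pairs of summits were as close as these, and in 10 of them the taller peak reached 56.

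**Figure D1:**
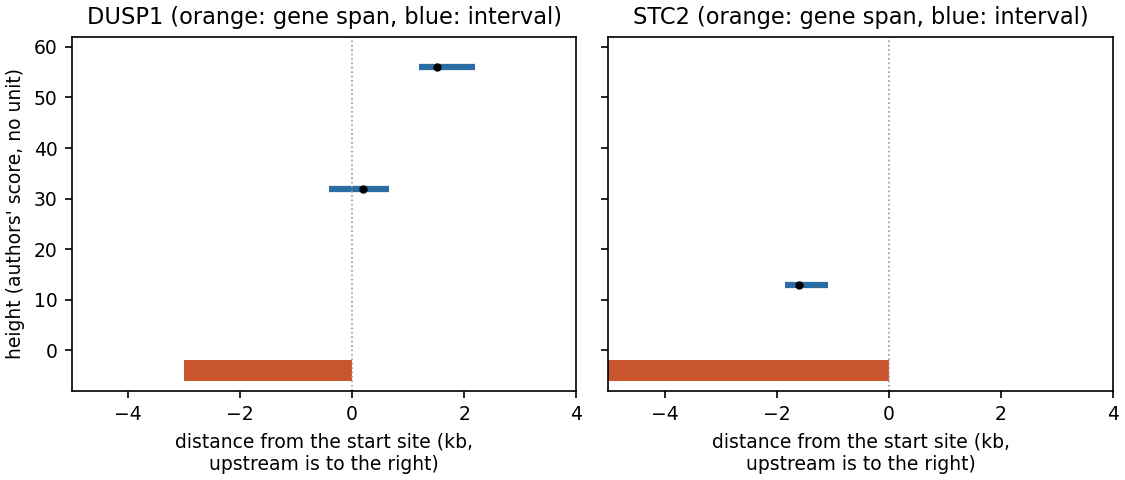
Peak intervals (blue bars, width to scale) and summits (black points) within 5 kb inside and 4 kb upstream of the start site of DUSP1 (left) and STC2 (right), plotted by height (the authors' score, no unit) against distance from the start in kb. At DUSP1 the peak of height 32 spans the start and that of height 56 lies wholly upstream, while at STC2 the single peak of height 13 lies inside the gene span (orange, cut off at the left edge for STC2). Starts are the upper ends of the hg19 spans, and the RefSeq start of STC2 may lie lower.

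Another 2 peaks lay upstream of DUSP1 within 50 kb. They were 24.5 kb upstream with a height of 24, equal to the median of the whole list, and 30.4 kb upstream with a height of 38. On the downstream side of the gene no summit lay within 50 kb. The nearest there was 52.9 kb below the gene span, with a summit at 172142080 and a height of 35. Within 100 kb of the span there were 5 summits upstream and 1 downstream. The DUSP1 span itself, 3 kb long, held 0 summits, because the summit of the peak over its start lay just outside the rounded span.

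At STC2 the picture was sparse and low. Its 15 kb span held 1 summit, at 172755392, 1.6 kb below the upper end of the span. The interval of that peak, from 172755150 to 172755913, ended 1.1 kb short of that end, which is known only to about 1 kb. Whether the interval covered the RefSeq start of the printed STC2 promoter was not settled. Its height of 13 was the lowest of the 17, and 98.5% of all peaks in the list were at least as tall. No other summit lay within 100 kb of STC2.

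Upstream of STC2, peaks of heights 15 and 19 lay 125.5 kb and 153.8 kb from its start, with summits at 172882496 and 172910848. These 3 peaks, from STC2 onward, were all at or below a height of 19, the lower quartile of the whole list. Within 100 kb of the gene the tallest peak was thus 13 at STC2 and 56 at DUSP1. Which gene a distal peak acts on cannot be read from distance.

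Between the genes the peaks were packed toward DUSP1. From the DUSP1 start onward, 11 consecutive summits fell within 184.5 kb, up to 172382736. Their heights in order were 32, 56, 24, 38, 49, 23, 37, 36, 38, 18 and 46, with a median of 37. This run was picked out after its values were seen. Counting every run of 11 consecutive summits in the list, 6 of 9163 were as short, and they lay in 3 places: here, on chromosome 5 beginning in the megabase from 148 Mb, and on chromosome 10 in the megabase from 3 Mb.

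**Figure D2:**
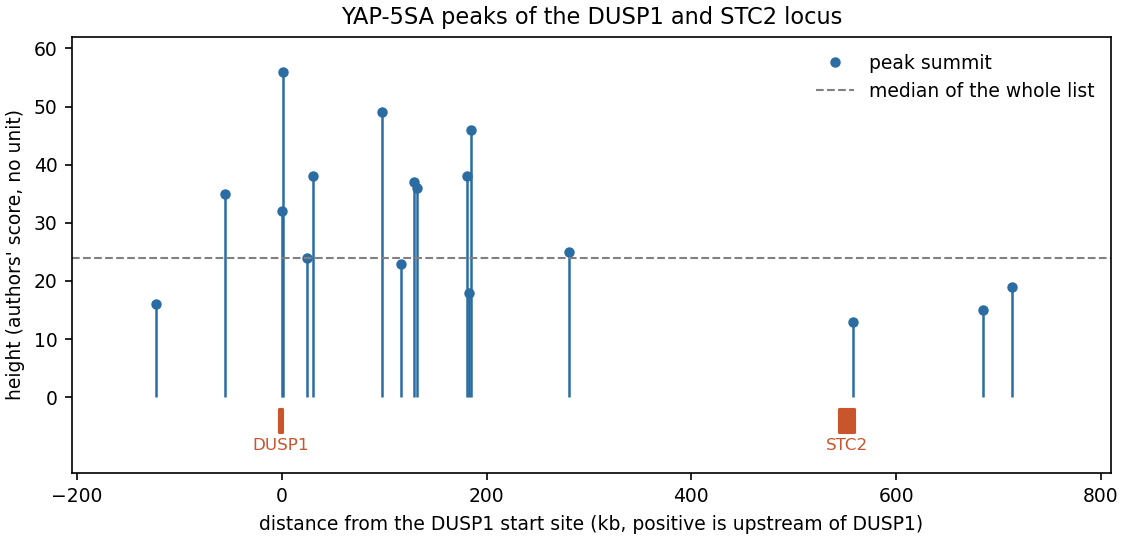
Height (the authors' score, no unit) of each of the 17 peaks against the distance of its summit from the DUSP1 start in kb, positive upstream of DUSP1, with gene spans in orange and the median of the whole list (24) as a dashed line. The 11 peaks from the DUSP1 start to 184.7 kb carry heights of 18 to 56, and the 3 from STC2 onward lie at 13, 15 and 19.

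After the pair at DUSP1 and the peaks 24.5 and 30.4 kb upstream, the run held a peak 98.2 kb upstream of the DUSP1 start. Its interval, from 172295409 to 172296663, was 1255 bp wide, and its height of 49 was the second highest of the megabase. A group of 3 followed at 116.1, 129.2 and 131.9 kb, with heights of 23, 37 and 36. The last of these, from 172329098 to 172330488, was the widest of the 17 at 1391 bp, and 85 peaks in the list (0.905%) were as wide.

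The run closed with 3 summits within 3.6 kb, at 172379136, 172380896 and 172382736. Their heights were 38, 18 and 46, so that a low peak stood between 2 taller ones. Their intervals were 647 bp and 1187 bp apart and none touched. In the list 21 runs of 3 summits were as short, and in 5 of them the tallest peak reached 46.

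Beyond this group lay a single peak of height 25 at 172478944, 280.9 kb upstream of the DUSP1 start, and then 276.4 kb without a summit up to the peak in STC2. Over the 544 kb between the 2 gene spans there were thus 12 summits, and the stretch next to STC2 had none. RefSeq (GRCh38.p14) lists 6 protein-coding genes between DUSP1 and STC2: ERGIC1, a protein of the compartment between endoplasmic reticulum and Golgi, RPL26L1, a ribosomal protein paralogue, ATP6V0E1, a subunit of the proton-pumping V-ATPase, CREBRF, a regulator of stress-responsive transcription, BNIP1, a membrane fusion protein of the endoplasmic reticulum, and NKX2-5, a homeobox factor of the heart. Before DUSP1 the order is UBTD2, SH3PXD2B and NEURL1B, and beyond STC2 it is BOD1, CPEB4 and C5orf47. Only the order of these genes was used, so the peaks between DUSP1 and STC2 were not placed within or outside them. Apart from the pair at the DUSP1 start, any of the 12 summits may lie in or nearer to one of these genes than to DUSP1. Likewise, the peaks below DUSP1 and those upstream of STC2 may lie in or nearer to one of the genes named on those sides.

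Close spacing was common in the megabase. With intervals at most 5 kb apart joined, 7 of the 17 peaks (41.2%) fell into 3 groups: the pair at DUSP1, the pair at 129.2 and 131.9 kb, and the 3 that close the run. Of all other peaks in the list, 13.7% fell into groups at that distance. Joined at 25 kb, 11 of the 17 (64.7%) were grouped, against 33.8% of the others, and the groups took in every peak of the run. A dense megabase brings peaks closer together, so these shares repeat in part what the choice of the region fixed.

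Heights spread widely within the megabase. They ran from 13 to 56 with a median of 32 and a mean of 30.6 ± 12.8 (SD over 17 peaks), while the other 9376 peaks had a median of 24 and a mean of 25.8 ± 9.59 (SD over peaks). A height of 40 or more was reached by 3 of the 17, at 1.5, 98.2 and 184.7 kb upstream of DUSP1, or 17.6%. In the whole list 8.67% of peaks were as tall. Shares of so few peaks are imprecise, and neighbouring peaks of 1 library are not independent replicates, so no interval is given for these shares or for those of width.

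The median height differed along the megabase. The 13 peaks nearer to DUSP1 had a median of 36 and ranged from 16 to 56, and the 4 nearer to STC2 had a median of 17 and ranged from 13 to 25. The ranges overlapped: on the DUSP1 side, the peak 119.8 kb below the gene span had a height of 16 and others had 18, 23 and 24. A median taken over the whole megabase therefore describes neither side.

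Distal chromosome 5 as a whole had taller peaks. The 383 other peaks beyond 120 Mb had a median of 27, with 14.9% at 40 or more, against 24 and 8.38% for all peaks outside that stretch. Beside the 383, the difference in median height of the 17 was 5, against 8 beside all other peaks. Whether the heights were corrected for DNA copy number or by the input is not stated, no such correction was made here, and the part of copy number in the heights or the number of peaks was not tested.

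Widths were more uniform. Of the 17 intervals, 16 were wider than 611 bp, the median of the whole list, and the exception, 24.5 kb upstream of DUSP1, was 608 bp. Their median was 794 bp with a range of 608 to 1391 bp. A width of 900 bp or more was found for 6 of the 17, or 35.3%, against 8.45% of the whole list and 14.6% of the other peaks beyond 120 Mb. All 6 lay in the run from the DUSP1 start.

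Low peaks of the megabase were wide as well. The 3 from STC2 onward measured 764, 894 and 818 bp in spite of heights of 13, 15 and 19. For heights of 13 to 24 the median width was 764 bp over 7 peaks here and 586 bp over 4966 elsewhere. For heights of 25 to 39 it was 901 bp over 7 peaks and 625 bp over 3457. For 40 to 56 it was 991 bp over 3 peaks and 682 bp over 683. All 7 peaks of each lower level, and 2 of the 3 tallest, were wider than the median of other peaks of their level. The 383 other peaks beyond 120 Mb, with a median width of 663 bp, were not compared by level of height. An interval's width also depends on the peak caller, whose settings the labels do not state.

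**Figure D3:**
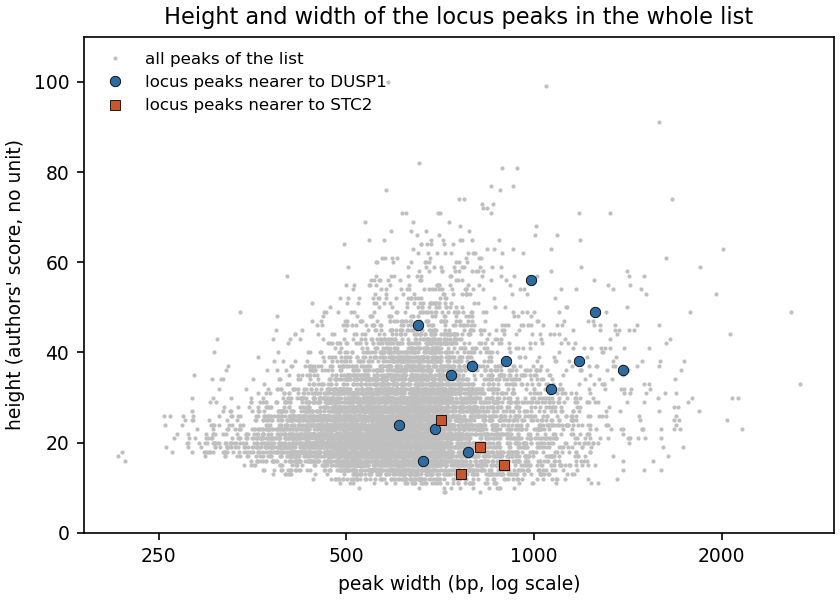
Height (the authors' score, no unit) against width (bp, log axis) of all 9393 peaks (grey) and of the 17 peaks of the megabase, as blue circles where nearer to DUSP1 and orange squares where nearer to STC2. The squares lie low, at heights of 13 to 25 and widths of 709 to 894 bp, and the circles reach a height of 56 and a width of 1391 bp.

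Set among the other megabases, the number of peaks was near the top of the list, as the choice of the region required. Of 2375 windows of 1 Mb with at least 1 peak, 7 (0.295%) held 17 or more, and 3 of them held more than 17. The median window held 3. On chromosome 5 beyond 120 Mb, 4 of 59 such windows held 17 or more.

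The megabases beside it were less dense. The one before, from 171 to 172 Mb, had 7 peaks with a median height of 29, and the one after, from 173 to 174 Mb, had 14 with a median height of 27. The bounds cut through a peak-bearing stretch: the last summit before 172.0 Mb, of height 16, lay 38.9 kb outside, and the first after 173.0 Mb, of height 44, lay 72.5 kb outside. The window from 171.5 to 172.5 Mb, which has DUSP1 but not STC2, held 19 peaks, and that from 172.5 to 173.5 Mb, which has STC2, held 12.

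Of the 105 windows with at least 10 peaks, 13 had a median height of 32 or more and 6 had a median width of 794 bp or more. The medians over these windows were 24.5 in height and 653 bp in width.

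**Figure D4:**
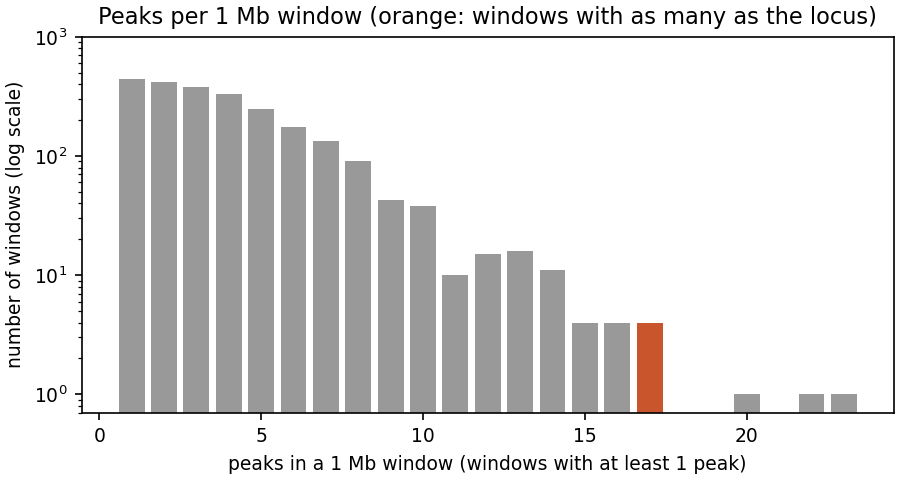
Number of 1 Mb windows (log axis) by the number of peaks they hold, over the 2375 windows with at least 1 peak. The orange bar holds the 4 windows with 17 peaks, the DUSP1 and STC2 megabase among them, and 3 windows hold more.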

How the data were processed

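Reads were aligned with BWA 0.6.1 and peaks called with MACS on hg19, per the submitters' processing notes. The notes give no MACS version, threshold or use of the input. The list deposited by the authors has, per the file headers, a summit track, with a score per summit, and an interval track. Both were joined by order, and groups of close peaks join intervals at most 12.5 kb apart (5 and 25 kb as alternatives). Scores are whole numbers of unstated scaling and are called heights. Summits of the 17 peaks lay on multiples of 32 bp (14 peaks) or 16 bp off (3 peaks). Interval coordinates are 1-based.

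Gene spans in hg19 (DUSP1 172.195 to 172.198 Mb, STC2 172.742 to 172.757 Mb) are known here to 1 kb. Strand, gene order and promoters came from RefSeq tables for GRCh38.p14, and no coordinate was moved between builds. The genes named are DUSP1, STC2, the protein-coding genes between them and the 3 nearest on each side, and matched MAP kinase phosphatases. Noncoding genes and pseudogenes in between were left unnamed. The only stanniocalcin matched was STC2. Region, members and lists were chosen with earlier results of these data known. Nothing was tested for significance. Counting, joining and motif searches were tested on simulated data and recovered every planted item. Work was done in Python 3.11.15 with pandas 2.3.3, numpy 2.4.6, scipy 1.17.1 and matplotlib 3.10.9.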

Additional observations from a re-analysis of the deposited data

How the results depend on the processing

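No paired analysis was possible because each group has only 1 library, and none could be left out. The 17 peaks became 10 when only peaks higher than the list median were counted, 3 at a height of 40 or more, and 11 in the run from the DUSP1 start, each fewer by construction. The share of windows as dense, 0.295%, was 0.703% for peaks higher than the median, 2.56% on chromosome 5 alone, and 0.0831% and 2.41% for windows moved by 0.5 Mb that hold DUSP1 and STC2 respectively. The median height less that of other peaks, 8, was 5 against distal chromosome 5 and 12 for peaks nearer to DUSP1. The median width less that of other peaks, 183 bp, was 131 bp against distal chromosome 5 and 186 bp against peaks of the same range of heights. From its interval edge, the peak nearest to DUSP1 was 0 kb away rather than 0.2 kb. Within 10 kb of DUSP1 there were 2 peaks, against 4 within 50 kb. At the main joining distance the peaks formed 4 groups, and 3 at 5 kb or 25 kb. None of these directions reversed. Alternatives by position on the DUSP1 side and by height range were chosen after seeing the data. The single library and the unknown read depth limit every value.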
